A study of Saccharomyces cerevisiae with 24 samples.

Results

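Late-only induced genes were the open reading frames (ORFs) of budding yeast whose transcript level stayed near its starting value for the first 15 min of cadmium exposure and was clearly higher at 120 min. They numbered 162 of the 6575 ORFs in the expression table, and 2.72% of the 5965 tested ORFs, those whose mean over the 6 time points was 1 TPM or more. TPM is transcript abundance corrected for gene length and scaled to a fixed total per column. A change is the difference in log2(TPM + 1) from 0 min. Members had an absolute change below 0.5 at both 7.5 and 15 min and a change of at least 1.5 at 120 min. In all, 1426 ORFs reached 1.5 at 120 min (23.9% of those tested), and the members were 11.4% of them. The members were thus chosen by their TPM at 0, 7.5, 15 and 120 min and their mean over all 6 times, so those values are descriptions only.

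The cells were haploid Saccharomyces cerevisiae of the W303 background, of mating type a (MATa) and carried the alleles ade2-1, can1-100, his3-11,15, leu2-3,112, trp1-1 and ura3-1. They grew in rich medium at 30 °C to an optical density of 0.8, and every group shared this genotype. Cells taken before cadmium chloride was added served as 0 min, and the others were taken 7.5, 15, 30, 60 and 120 min after addition to 1 mM. RNA and chromatin cut with micrococcal nuclease (MNase) were each labelled with 2 samples per time point, 24 samples in all. No parallel culture without cadmium is among the labels, so time in culture and cadmium cannot be told apart. The tables held 1 column per time point with no replicate named, so differences between columns carry no replicate error and no p-value was computed. Errors given with ± are counting errors of 1 standard deviation.

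Cadmium binds thiol groups, and yeast answers it within minutes by raising sulfur assimilation and glutathione synthesis together with general stress genes. Genes for alternative carbon sources, fatty acid oxidation and meiosis are a different class: in growing haploid cells they are held at very low levels by repressors, among them Mig1 for glucose-repressed genes and Ume6 for early meiotic genes. Several of the late-only genes belong to these low-level programs.

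The late-only genes were weakly expressed before cadmium. Their median was 3.41 TPM at 0 min, against 46.2 TPM over all tested ORFs. At 0 min 43 members lay under 1 TPM (26.5%, against 2.77% of the tested ORFs), and 104 lay under 10 TPM (64.2%, against 15.6%). The member median was 2.60, 4.18, 10.7, 20.8 and 26.4 TPM at 7.5, 15, 30, 60 and 120 min. These contrasts are in part set by selection, since the rule uses the 0 min value and the filter on mean TPM removed 610 of the 6575 ORFs, so that a tested ORF under 1 TPM at 0 min had to be higher at a later time. Most members ended at modest levels, and 36 of them (22.2%) reached 100 TPM or more at 120 min, against 30.2% of the tested ORFs. Members together held 0.279% of all TPM at 0 min and 1.71% at 120 min. The pseudocount of 1 TPM shrinks the change of a gene near or below 1 TPM, so a weakly expressed gene meets the early limit of 0.5 more easily. Levels come from whole cultures, in which more cells with a transcript and more transcript per cell cannot be told apart.

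The median change of the members was -0.14, 0.26, 1.10, 1.78 and 2.01 at 7.5, 15, 30, 60 and 120 min. The median over all tested ORFs was -0.10, 0.11, 0.35, 0.44 and 0.34 at the same times. The 30 and 60 min columns were not part of the thresholds on change, and they split the members by the first time at which the change reached 1. This was 30 min for 91 members (56.2%, with 29.8% of all tested ORFs at or above 1 at that time) and 60 min for 67 members. At 60 min 158 members (97.5%) were at or above 1, against a background of 34.8%, and the other 4 passed 1 only at 120 min. All changes share the 0 min column, and the rule fixes that members pass 1 by 120 min. The members that passed 1 at 30 min had a median change of 0.34 at 15 min and of 2.22 at 120 min, while those that passed at 60 min had 0.12 at 15 min and 1.87 at 120 min.

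**Figure D1:**
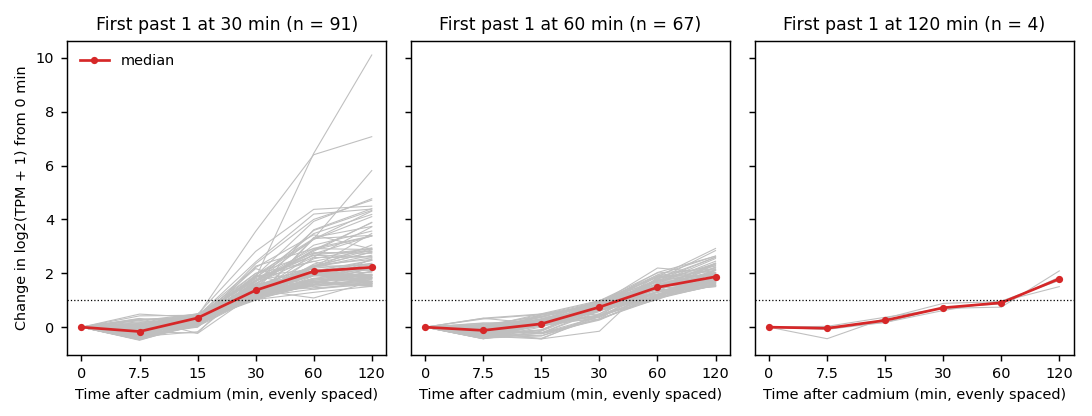
Change in log2(TPM + 1) from 0 min (vertical axis) against time after cadmium (horizontal axis, time points evenly spaced), for the 162 late-only genes split by the first time at which the change reached 1 (dotted line). Grey lines are genes and red lines medians; the medians are 2.22, 1.87 and 1.79 at 120 min, and JLP1 is the line that ends at 10.1.

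The rise was still under way late in the time course. Members had reached a median of 49.2% of their 120 min change at 30 min and 85.2% at 60 min. For comparison, 949 early-induced ORFs were taken, with a change of at least 1 at 7.5 or 15 min and of at least 1.5 at 120 min; they had reached 86.2% and 97.1%, a contrast to which the choice of both sets contributes. From 60 to 120 min, 131 members gained further (80.9%, against 61.0% of the early-induced set). Of these, 64 gained at least 0.5 (39.5% of members, against 15.0% of the early-induced set). The limit of 1.5 at 120 min favours genes still rising, so these shares are in part set by selection. The share over all tested ORFs is not given here. The largest gains over this last hour were 3.65 for JLP1, 2.53 for the uncharacterised YOL131W, 1.35 for YEL034C-A and 1.26 for RGI2, a gene of respiratory growth. EUG1 and YJL152W fell by at least 0.5 over the same hour, by 0.77 and 0.53.

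The precision of the early values could be estimated from read depth. For 99.5% of matched ORFs above 0, TPM multiplied by gene length fell on whole steps within 0.02 read, so the reads behind each value could be recovered for the 132 members matched to RefSeq. Their median was 201.5 reads at 0 min and 986 reads at 120 min, in columns of 31462417 to 33603939 reads over matched ORFs. The median counting error of a member's change was 0.12 at 15 min and 0.10 at 120 min. Of the 132 members 40 (30.3%) were below 0.5 at both early times by more than 1.96 counting errors. The others included well covered genes whose 15 min change lay close to 0.5, such as WWM1, with 3489 reads at 0 min and a change of 0.46 ± 0.03. At 0 min UTR5 and YER135C rested on 2 reads each and GAT3 and YOL131W on 1 read each, below a floor of 3 reads. Counting errors cover neither culture nor library variation.

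Among the sulfur, metal and redox genes, JLP1 (YLL057C, chromosome XII, positions 25756 to 26994 of R64) showed the largest change of all members. It encodes a dioxygenase that releases sulfite from sulfonates, so that these can serve as a source of sulfur. JLP1 stood at 3.35, 2.44, 4.63, 14.5, 380 and 4791 TPM over the 6 time points, a change at 120 min of 10.10 ± 0.10. It was nearly flat while both of its neighbours were already higher, with changes at 15 min of 2.21 for HSU1 and 1.67 for YLL056C. GCY1, an aldo-keto reductase with glycerol dehydrogenase activity, ran from 28.6 TPM at 0 min through 22.2, 29.4, 75.5 and 362 to 625 TPM at 120 min, a change of 4.40 ± 0.05. OYE2, an NADPH dehydrogenase known as old yellow enzyme, was the member with the highest starting level and ran through 451, 441, 550, 881, 1650 and 1726 TPM. The metallothionein CRS5 held 39.4, 37.6 and 33.8 TPM up to 15 min and then 52.0, 92.5 and 127 TPM. ARR2, an arsenate reductase, was at 5.50, 28.8 and 25.2 TPM at 0, 60 and 120 min. JLP1 and GCY1 had passed a change of 1 at 30 min (1.83 and 1.37), and the other 3 passed it at 60 min.

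Genes of organic acid metabolism included the member with the second largest change. SFC1, the mitochondrial carrier that exchanges succinate for fumarate, was at 0.802, 0.667 and 1.41 TPM up to 15 min and at 20.2, 151 and 241 TPM afterwards, a change of 7.07 ± 0.14. ICL2, a mitochondrial methylisocitrate lyase, ran from 8.08 to 59.7 TPM, and FBP1, the fructose-1,6-bisphosphatase of gluconeogenesis, from 1.13 to 8.41 TPM. CIT2, the peroxisomal citrate synthase, had another course, with 130, 128 and 163 TPM up to 15 min, a peak of 591 TPM at 30 min and 369 and 462 TPM later. ODC1, a mitochondrial carrier of oxodicarboxylates, ran from 14.1 to 53.1 TPM. Of the list of 28 genes of the tricarboxylic acid cycle, the glyoxylate cycle and gluconeogenesis, SFC1, CIT2 and FBP1 were late-only (10.7%, against 2.72% of all tested ORFs), 9 were in the early-induced set (15.9% of all tested ORFs are), and 22 were higher by at least 1 at 120 min and 1 lower (33.8% and 20.2% of all tested ORFs). The same shares of all tested ORFs are the background of the lists that follow. All lists were chosen with earlier results of these data known, so these contrasts are descriptions only. None of the 36 genes of the respiratory chain and ATP synthase was late-only, and 6 of them were higher at 120 min.

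The carnitine shuttle and fatty acid oxidation formed a further group. CAT2, the carnitine acetyltransferase of peroxisomes and mitochondria, was at 3.98, 2.60 and 5.96 TPM up to 15 min and at 15.5, 34.1 and 72.9 TPM afterwards, a change of 3.89 ± 0.08. YAT1, the acetyltransferase of the outer mitochondrial membrane, ran from 6.01 to 31.4 TPM. POX1, the oxidase of the first step of peroxisomal beta-oxidation, rose from 0.436 to 8.14 TPM, a low level throughout. FAA2, which activates fatty acids, PXA1, a subunit of the peroxisomal fatty acid importer, and IDP3, the peroxisomal isocitrate dehydrogenase, had changes at 120 min of 1.67, 2.10 and 2.01. These 6 genes were 13.0% of the 46 on the peroxisome and fatty acid list, of which 29 were higher by at least 1 at 120 min, 9 of them in the early-induced set, and 0 were lower. PEX35, a peroxisomal membrane protein, is not on that list and ran from 14.1 to 46.6 TPM.

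Role groups were assigned to members only, after values were seen, and covered 56 of the 162 (34.6%). They thus have no share over all ORFs. Genes of meiosis and spore formation were the largest of these groups, with 16 members, and all were weakly expressed. Their levels lay between 0.110 and 3.44 TPM at 0 min and between 2.98 and 47.0 TPM at 120 min. HED1, a meiosis-specific gene, was at 0.760, 0.556 and 0.516 TPM up to 15 min and at 5.60, 25.8 and 47.0 TPM afterwards, a change of 4.77 ± 0.20. The meiotic recombinase DMC1 ran from 1.45 to 8.16 TPM, the meiotic cohesin subunit REC8 from 1.17 to 7.86 TPM, and the meiotic checkpoint kinase MEK1 from 0.339 to 3.45 TPM. Late genes of spore building were present too. The divergent neighbours DIT1 and DIT2, which make the dityrosine of the spore wall, ran from 2.64 to 11.2 TPM and from 1.17 to 5.49 TPM, and SPO20, which serves membrane fusion in spore formation, from 1.53 to 6.76 TPM. PHO92, a reader of methylated RNA in meiosis, ran from 0.110 to 15.3 TPM, and MPC54, a spindle pole protein of spore formation, from 3.08 to 23.7 TPM. At 30 min 5 of the 16 had passed a change of 1 (31.2%, against 29.8% of all tested ORFs and 56.2% of all members).

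On the meiosis and sporulation list, 43 of 57 genes had a mean of at least 1 TPM, and 7 of these were late-only (16.3%, against 2.72% of all tested ORFs): AMA1, DIT1, DIT2, DMC1, MEK1, REC8 and SPO20. A further 5 of the 43 were early-induced, with 15.9% of all tested ORFs in that set. At 120 min 25 of the 43 were higher by at least 1 and 2 were lower, against 33.8% and 20.2% of all tested ORFs, with a median change of 1.34. At 15 min 5 were higher by at least 1, against 18.3% of all tested ORFs. Another 5 were lower by at least 1, for which the share over all tested ORFs is not given here. The list's median at 15 min was 0.10, close to the 0.11 of all tested ORFs. A gene under 1 TPM at 0 min, such as MEK1, enters the 43 only if it is higher at a later time. The late-only share and the 120 min counts of this list are thus in part set by selection.

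**Figure D2:**
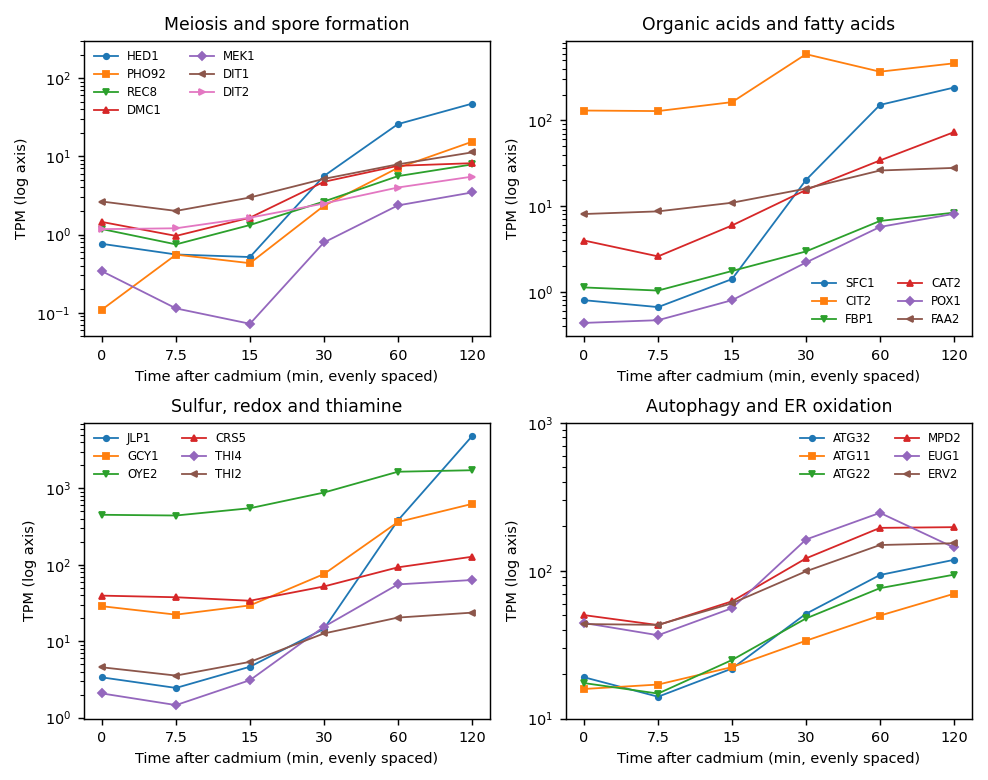
TPM on a log axis against time after cadmium (evenly spaced) for named late-only genes in 4 panels, some of which join role groups. Points are the single deposited value per time point. JLP1 climbs from 3.35 to 4791 TPM, CIT2 peaks at 591 TPM at 30 min, EUG1 peaks at 246 TPM at 60 min, and the meiotic genes stay at or below 47.0 TPM.

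Smaller groups concerned protein turnover and folding. ATG32, the receptor that marks mitochondria for autophagy, was at 19.0, 14.0, 21.8, 51.2, 93.6 and 118 TPM over the 6 time points, a change at 120 min of 2.58 ± 0.05. ATG11, the scaffold of selective autophagy, ran from 15.9 to 69.8 TPM, and ATG22, which exports amino acids from the vacuole, from 17.4 to 94.0 TPM. These 3 were 8.11% of the 37 autophagy genes listed, most of which moved earlier: 23 were in the early-induced set, and 34 were higher by at least 1 at 120 min. ATG45, not on the list, ran from 19.7 to 106 TPM. In the endoplasmic reticulum, the thiol oxidase ERV2 and the disulfide isomerase family members MPD2 and EUG1 started close together, at 43.6, 50.1 and 44.3 TPM. At 60 min they stood at 149, 195 and 246 TPM, and at 120 min EUG1 was back at 144 TPM while ERV2 and MPD2 held 153 and 197 TPM.

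Vitamin genes included THI4, the thiazole synthase of thiamine synthesis, which was at 2.07, 1.46 and 3.09 TPM up to 15 min and at 15.4, 55.3 and 63.1 TPM afterwards (change 4.39 ± 0.13). THI2, an activator of thiamine genes, ran from 4.55 to 23.6 TPM. BNA6, an enzyme of NAD synthesis, ran from 36.3 to 126 TPM. SNZ2, of the vitamin B6 pathway, ran from 1.24 to 5.91 TPM and has near-identical copies, so its reads are uncertain. Sugar genes on the list of 32 tested were late-only in 4 cases (12.5%): the galactose permease GAL2, its regulator GAL4, the isomaltase IMA5 and the transporter HXT9, a close copy of other transporters. All 4 ended at or below 22.0 TPM, and 0 of the 4 had passed 1 at 30 min. The 32 were those of 46 listed genes that passed the filter on mean TPM. That mean includes the later times, so the 12.5% is in part set by selection.

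Subtelomeric families gave 5 late-only genes of 27 tested (18.5%), namely PAU2, PAU17, COS4, COS6 and AAD10, and 1 early-induced gene. The list held 49 genes, of which 47 were in the expression table, and the 27 were those that passed the filter on mean TPM. PAU2 and COS4 started at 0.745 and 0.623 TPM and passed it only through later times, so the 18.5% is in part set by selection. Copies within these families are nearly identical, so the assignment of reads among them is uncertain. COS6 was the most abundant, with 33.4 TPM at 0 min and 122 TPM at 120 min. In mating and cell type, STE3, the receptor for a-factor that is normally made by cells of mating type alpha, ran from 1.20 to 11.3 TPM in this MATa strain. HMRA1, in a silent mating cassette, ran from 50.8 to 147 TPM and has the same sequence as the expressed MAT locus of this strain, so these reads cannot be placed. PRR2, a kinase that acts on the pheromone response, ran from 3.06 to 29.6 TPM. STE3 was the only late-only gene of 38 on the mating list, of which 9 were higher and 10 lower at 120 min.

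The list of trehalose, glycogen and stationary phase genes held 3 late-only genes of 44 (6.82%): SNZ2, FMP45 and the hydrophilin SIP18. It was otherwise an early list, with 32 early-induced genes and 43 of 44 higher by at least 1 at 120 min. Lists without any late-only gene, to be read against 15.9% early-induced among all tested ORFs, were, besides the respiratory chain, those of nitrogen catabolite repression (10 of 35 early-induced), phosphate response (4 of 27), cell cycle and DNA replication (2 of 55), telomere helicases and silent chromatin (0 of 14), vacuolar proteases and permeases (15 of 34), and multidrug and metal transport (18 of 51). In the cell cycle list 28 of 55 genes were lower by at least 1 at 120 min, against 20.2% of all tested ORFs.

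**Figure D3:**
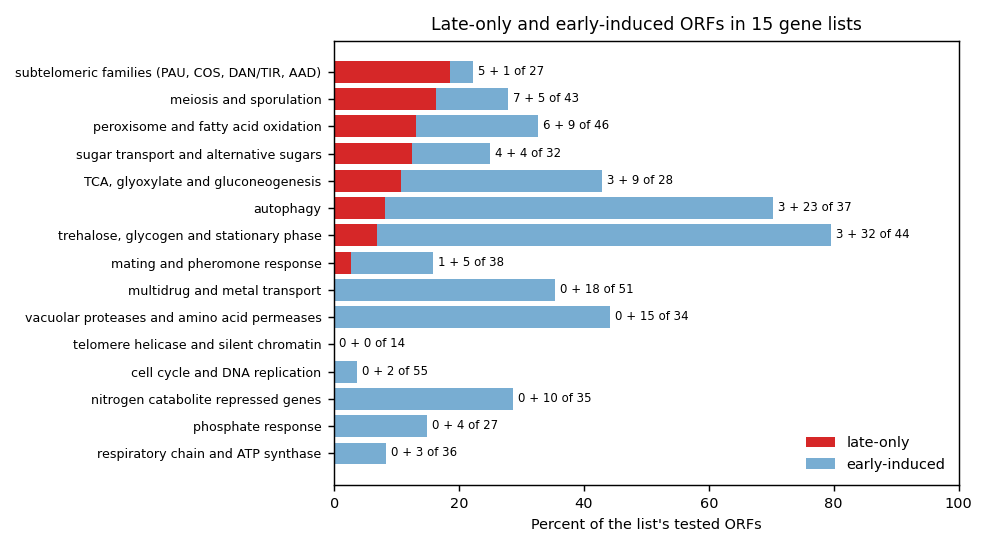
Percent of each list's tested ORFs (horizontal axis) that were late-only (red) or early-induced (blue) in 15 gene lists, with the counts beside the bars. Tested ORFs passed a filter on mean TPM that includes the later times, so shares in weakly expressed lists are in part set by selection. Late-only genes are 5 of 27 in the subtelomeric list and 7 of 43 in the meiosis list, while the autophagy and the trehalose lists are mostly early-induced, with 23 of 37 and 32 of 44.

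Other members stood out by size alone. With a mean of at least 5 TPM, the largest changes after JLP1 and SFC1 included the uncharacterised YOL131W (0.103 TPM at 0 min, 61.0 TPM at 120 min), HED1, and DIA3 with YDL022C-A. DIA3, an acid phosphatase homologue, ran from 3.22 to 94.0 TPM. It overlaps YDL022C-A on the same strand, and reads within the shared stretch, positions 409808 to 409857, cannot be given to either ORF. YGR067C, a putative zinc finger protein, ran from 2.20 to 57.2 TPM, YMR206W from 0.395 to 26.6 TPM, and URA10, an orotate phosphoribosyltransferase, from 6.87 to 134 TPM. YOL037C was at or below 0.102 TPM up to 15 min and at 21.1 TPM at 120 min. By level at 120 min, the top 6 were JLP1, OYE2, GCY1, WWM1 (185 to 578 TPM, with 646 TPM at 60 min), TMH11 (125 to 487 TPM) and CIT2.

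Many members were ORFs without a RefSeq gene entry. These were 30 of 162 (18.5%), against 5.60% of the tested ORFs and 4.21% of the early-induced set. Their levels at 120 min lay between 3.33 and 165 TPM. Some, such as YOL037C and YDL050C with 0.0955 and 0.182 TPM at 0 min, passed the filter on mean TPM only through later times. The contrast in shares is thus in part set by selection. The strand used for counting is not stated, so reads of a gene and of an ORF that overlaps it or lies on the other strand cannot be told apart. Of the 30, 14 (46.7%) were listed next to an ORF with a change of at least 1.5 at 120 min, which held for 42.0% of all members and for 39.2% of all tested ORFs. Of the 132 matched members 9 overlap another gene (6.82%, with the share over all matched ORFs not given here). Among them are FAA2 (with BUD25), ERV2 (with IRC16) and WWM1 (with AUA1). YBL065W (0.686 to 21.3 TPM), for example, lies next to PRX1, a mitochondrial peroxiredoxin gene that went from 9.59 to 1034 TPM, and YJL152W lies next to INO1 (4.30 to 174 TPM).

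Members lay next to each other in 9 pairs, so that 18 of 162 (11.1%) had a member as a listed neighbour, against 4.93% of all tested ORFs. The pairs included ICL2 with REC8 on the same strand, DIT2 with DIT1, and DIA3 with YDL022C-A, which overlap. The remaining 6 each paired a named gene with an ORF without a gene name, and their overlap is not known. Whether reads were shared within these pairs was not tested. An ORF with a change of at least 1 at 15 min was listed next to 35 members (21.6%), against 31.0% of all tested ORFs. Of the 132 matched members 18 (13.6%) lay within 30 kb of a chromosome end, against 4.90% of all matched tested ORFs and 7.81% of the early-induced set. Near the ends, DSF1, HXT9 and COS4 started at 0.179, 0.278 and 0.623 TPM and passed the filter on mean TPM only through later times. The 13.6% is thus in part set by selection. None of these shares was tested.

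The ORFs outside the set whose course was most like the mean of the members were GRE1, INO1, SPS100, ECM5 and SND1, with Pearson correlations over 6 time points between 0.997 and 0.999. GRE1 rose from 2.87 to 9327 TPM and missed the rule with a change of 1.14 at 15 min. INO1 (0.59) and SPS100 (0.65) missed it at 15 min too. ECM5 and SND1 were flat early but reached changes of only 0.90 and 0.98 at 120 min. INO1 and SND1 each lie next to a member, YJL152W and YDR187C. At the limits of the rule, TMT1, YEL030C-A and UBC12 were just inside at 120 min with 1.504 to 1.505, and ARE1, HXT8 and YLR041W just outside with 1.494 to 1.497. At 15 min UBC12 (0.498), YBL006W-A (0.497) and ATG22 (0.495) were just inside, and YBR292C, YIR016W and BSD2 just outside at 0.502. At 7.5 min FMP45 (-0.49), PHO92 (0.48) and CAT2 (-0.47) were just inside, and BSC4 (-0.51), THI20 (-0.52) and CIT3 (-0.53) just outside. By mean level GAL2 (1.01 TPM), YDR187C (1.04 TPM) and YDL050C (1.17 TPM) were just inside and YJR151W-A, YBR221W-A and ECM11 just outside, at 0.996, 0.902 and 0.809 TPM.

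Chromatin was measured for 48 of the 162 members (29.6%), against 74.1% of the tested ORFs and 73.2% of the early-induced set. The 48 were more strongly expressed than the other 114, with a median of 21.0 TPM against 1.45 TPM at 0 min. Of the 16 meiotic members 2 were covered, and of the 5 subtelomeric members 0. A promoter and a gene body measure were deposited for the same 4427 ORFs. The promoter measure counts small MNase fragments, which come from DNA covered by transcription factors and other particles smaller than a nucleosome. The gene body measure is an entropy score that is higher where nucleosomes are less regularly placed. Neither entered the rule.

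Small fragments at promoters were counted 653634 to 1050068 times per column, with a column median of 138 to 228. Occupancy change is the difference in log2(fragments + 63) from 0 min. The members' median occupancy change was -0.10, 0.00, 0.18, 0.37 and 0.43 at 7.5, 15, 30, 60 and 120 min. All promoters moved in the same direction, with medians of -0.09, 0.01, 0.12, 0.28 and 0.40, so that the members were 0.03 above all promoters at 120 min. The early-induced set was at 0.10 at 15 min and at 0.58 at 120 min, which is 0.19 above all promoters. Of the 48 members, 18 lay above the median of all promoters at 15 min (37.5%, with 50.0% of all promoters by definition), 32 at 60 min (66.7%) and 27 at 120 min (56.2%). For the early-induced set these shares were 68.9%, 74.8% and 77.8%. Until 15 min the members' promoters thus showed values close to those of all promoters, and early-induced promoters lay above both.

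**Figure D4:**
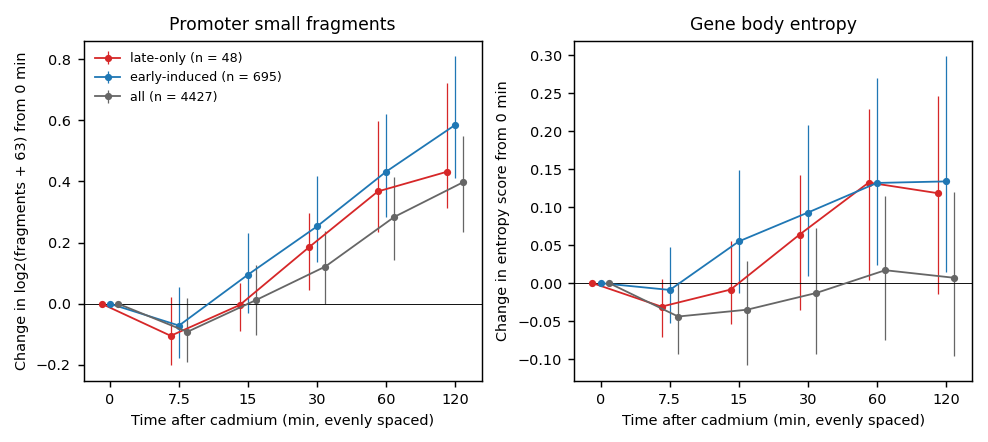
Change in promoter occupancy (left, log2 of fragments + 63) and in gene body entropy score (right) from 0 min against time after cadmium (evenly spaced), for late-only genes, early-induced genes and all ORFs in the chromatin tables. Points are medians and bars the range from the lower to the upper quartile; at 120 min the occupancy medians are 0.43, 0.58 and 0.40, and the entropy medians 0.12, 0.13 and 0.01.

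A group of 6 promoters gained at least 1 in occupancy by 120 min (12.5%, against 3.0% of all promoters and 14.0% of the early-induced set), and 0 members lost as much, which 0.136% of all promoters did. The largest gains were at 2 of the genes with the largest expression changes. The JLP1 promoter held 40, 36, 34, 45, 85 and 272 fragments over the 6 time points, a change at 120 min of 1.70 ± 0.11. Its count was flat to 30 min, when its transcript had reached 14.5 TPM, and it had gained 0.52 at 60 min, when its transcript change was already 6.45 of the final 10.10. The GCY1 promoter (gene on chromosome XV, positions 551114 to 552052) held 37, 46, 37, 77, 149 and 248 fragments, a change of 1.64 ± 0.11 with a first step at 30 min, the time at which its transcript first passed a change of 1.

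The next gains were smaller. MOG1, a nuclear import factor (chromosome X, positions 573095 to 573751), had 98, 62, 106, 174, 281 and 345 promoter fragments, a change of 1.34 ± 0.11. It is divergent from OPI3, a phospholipid methyltransferase gene whose transcript went from 27.7 to 450 TPM and whose promoter count went from 98 to 325, so the fragments of the space between them cannot be given to either gene. The same holds for KIC1, a protein kinase gene (145 to 375 fragments, 1.07), beside BIG1 (145 to 361 fragments). MRK1, a kinase of the glycogen synthase kinase family, went from 79 to 245 fragments (1.12) and TPH3 from 136 to 344 (1.03). At 60 min 2 members had gained at least 1, GCY1 and MOG1 (4.17%, against 1.69% of all promoters).

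At the other end, the promoter of VBA2, a vacuolar transporter of basic amino acids, held 159 fragments at 0 min and 149 at 120 min (-0.07 ± 0.12), while its transcript change was 3.05. VBA2 lies next to the sulfate permease gene SUL1, which went from 0.995 to 3822 TPM. FSH3, KTR2 and RAD7 gained 0.12, 0.13 and 0.15, each less than 2 counting errors and below the 0.40 of all promoters. SFC1, HED1 and DIA3 are not among the 48. THI4 had 221, 215, 218, 277, 417 and 401 promoter fragments, a change of 0.71 ± 0.10. ERV2 and TIP41 gave counts within 2 fragments of each other at every time point and are not independent.

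The entropy score of the members was high from the start, with a median of 6.77 at 0 min against 6.61 over all gene bodies and 6.62 in the early-induced set. The median entropy change of the members was -0.03, -0.01, 0.06, 0.13 and 0.12 at 7.5, 15, 30, 60 and 120 min. All gene bodies stood at -0.04, -0.04, -0.01, 0.02 and 0.01, and the early-induced set at -0.01, 0.06, 0.09, 0.13 and 0.13. The members were thus between all gene bodies and the early-induced set at 15 and 30 min and level with the early-induced set at 60 min. The score was above its 0 min value in 21 of 48 members at 15 min (43.8%, against 34.9% of all gene bodies), in 33 at 30 min (68.8%, against 45.5%), in 36 at 60 min (75%, against 54.6%) and in 34 at 120 min (70.8%, against 51.8%).

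By 120 min 17 of the 48 members had gained at least 0.2 in entropy (35.4%, against 14.9% of all gene bodies and 37.8% of the early-induced set), and 2 had lost as much (4.17%, against 12.0% and 4.60%). The largest gain was over MOG1, with scores of 6.14, 6.17, 6.32, 6.70, 6.98 and 6.90 over the 6 time points. ROG3, an arrestin-like gene, gained 0.50, YER152C 0.47 and THI4 0.46. THI4 was flat to 15 min (6.62, 6.58 and 6.61) and then stood at 6.88, 7.09 and 7.08, so its step at 30 min came at the same sampling time as that of its transcript. JLP1 went from 6.851 to 7.203 and GCY1 from 6.791 to 7.115. The score fell by 0.42 over ODC1, from 7.09 at 0 min through 7.09, 7.04, 6.98 and 6.77 to 6.68, although its transcript and its promoter fragments (129 to 305) both increased. It fell by 0.26 over TMT1, a methyltransferase gene, by 0.20 over MPC54 and by 0.19 over UBC12, a ubiquitin-like conjugating enzyme gene.

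**Figure D5:**
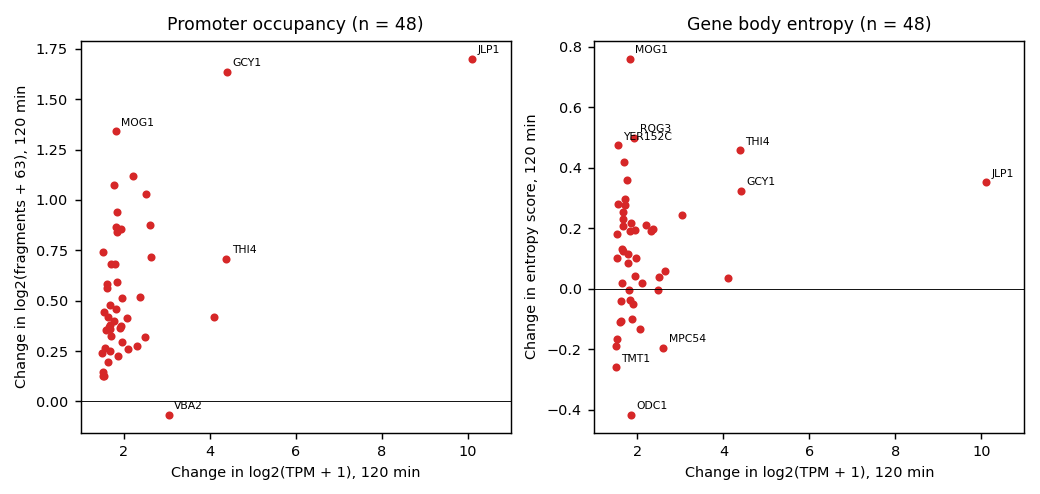
Change at 120 min in promoter occupancy (left) and gene body entropy (right) against change in log2(TPM + 1) at 120 min, for the 48 late-only genes in the chromatin tables, each point a gene. JLP1 and GCY1 have the largest occupancy gains, 1.70 and 1.64, and ODC1 the largest entropy loss, -0.42.

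Across the 48 members, expression change and occupancy change had Spearman correlations of 0.04, 0.24 and 0.38 at 30, 60 and 120 min. For entropy the correlation was 0.23, 0.32 and 0.15. These describe genes of the same libraries, with the rule bounding expression change from below at 120 min. Members that first passed 1 at 30 min (31 in the chromatin tables) and at 60 min (17) had similar median occupancy changes at 60 min, of 0.36 and 0.38. Their median entropy changes at 60 min were 0.16 and 0.06, and at 120 min 0.13 and 0.11.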

How the data were processed

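RNA and MNase chromatin of W303 yeast were sampled at 6 time points, with samples grouped from their titles. The authors deposited TPM for 6575 ORFs, whole-number counts of promoter fragments and an entropy score for 4427 ORFs, each with 1 column per time point that names no replicate; whether a column holds 1 library or 2 is not given in the sources used here. Per the submitters' processing notes, Bowtie 0.12.7 and the builds sacCer3 and R64 were used, with no role stated. Strand, windows, fragment lengths and the entropy formula are not given in the sources used here.

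Changes from 0 min were differences of log2(TPM + 1), of log2(fragments + 63) and of entropy. The pseudocount of 63 is the 10th percentile of promoter counts. Changes were computed with Python 3.11.15, numpy 2.4.6, pandas 2.3.3 and scipy 1.17.1. The rule was tested on simulated data without ORFs weakly expressed at 0 min, so low levels were not covered. Calls were set at 1 for expression and occupancy and at 0.2 for entropy. ORF names were matched to RefSeq (R64) by locus tag for symbols, lengths and positions; neighbours follow the order of the deposited table. Reads recovered from TPM and length served for counting errors only.

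The members and the 15 gene lists were chosen with earlier results of these data known; role groups were assigned after values were seen. Named genes were list members, the 12 largest changes at 120 min among members with a mean of at least 5 TPM, the 6 highest levels, the 4 largest chromatin gains and losses, genes at each limit, the 5 most similar courses, and others chosen after their values were seen. Promoter motifs were not analysed here. Alternatives covered pseudocounts, filters, rescaling, the limits of the rule, normalization of the chromatin columns and overlapping genes.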

Additional observations from a re-analysis of the deposited data

How the results depend on the processing

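No paired analysis was possible because no column names a replicate, and for the same reason no replicate could be left out. The 162 members became 88 with a filter at a mean of 10 TPM, 358 with a rise of at least 1, 83 with a rise of at least 2 and 39 with early changes below 0.25. Pseudocounts of 0.1 and 5 TPM gave 113 and 151 members, of which 96 and 87 were shared, no filter gave 166, and rescaling by the median ratio gave 124, of which 103 were shared. The members' median expression change at 30 min was 1.33 with 0.1 TPM, 0.67 with 5 TPM and 0.83 rescaled, and at 60 min 2.15, 1.28 and 1.41. Of the 162 members, 120 passed 1 at 30 min with 0.1 TPM, 52 with 5 TPM and 52 rescaled. At 60 min 161, 109 and 130 of the 162 passed it, against 158 in the main setting. Of the 88 members of at least 10 TPM, 58 passed it at 30 min and all 88 at 60 min. With promoter columns divided by their median, the occupancy medians were 0.054 at 60 min and 0.049 at 120 min, against -0.01 and -0.03 over all promoters, and 2 members passed 1 at 120 min. With a promoter pseudocount 10 times smaller 12 members passed it, and with one 5 times larger 0. The median entropy change at 60 min was 0.095 with quantile normalization and 0.103 both for members chosen on rescaled TPM and for matched members that overlap no other gene, an alternative chosen after seeing the data. At 120 min it was 0.104 with quantile normalization and 0.059 for members chosen on rescaled TPM. As log2 ratios, a different scale, it was 0.028 and 0.025. No sign changed in any of these. Except for the change of scale, the fewer genes kept under stricter limits and the shift of all promoters, the cause was not tested. The depth behind the entropy scores is unknown.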
